A study of Mus musculus with 24 samples.

Results

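The genes *Sparc*, *Postn*, *Thbs1*, *Thbs2*, *Tnc*, *Tnn* and *Fn1* encode matricellular and adhesive proteins of the extracellular matrix, and they were followed in bulk RNASeq of primary mouse osteoblasts (OBs). They were taken by symbol, each has 1 entry, and together they are 7 of the 55335 genes counted in each of 24 libraries. The cultures came from parietal bones of pups 4 to 5 days old on the C57BL/6J background. The pups were either wild type (WT) or heterozygous (Het) for G610C, a glycine to cysteine substitution in the collagen chain encoded by *Col1a2*. The cells were kept in osteogenic medium with ascorbic acid 2-phosphate, and 4 libraries per genotype, numbered as replicates 1 to 4 in the labels, were made for each of days 8, 14 and 21. Each preparation mixed cells from a number of pups of the same genotype, so its wells have their animals in common and p-values measure the spread between libraries, which may be partly technical. A single substitution leaves no trace in a gene count, so the genotype labels could not be checked against the targeted gene.

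Matricellular proteins are secreted into the matrix, bind collagens, growth factors and cell surface receptors, and tune how cells attach and how the matrix assembles more than they bear load. SPARC (osteonectin) binds collagen I and is abundant in bone. Periostin (*Postn*) is a fasciclin-domain protein of periosteum and other collagen-rich tissues. Thrombospondins 1 and 2 (*Thbs1*, *Thbs2*) bind CD36 and CD47, and thrombospondin 1 can activate latent TGF-beta. Tenascin C (*Tnc*) and tenascin W (*Tnn*) are large glycoproteins of developing and remodeling connective tissue, and fibronectin (*Fn1*) forms the fibrillar network on which other matrix proteins, collagen I included, are deposited.

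The relative quantity (RQ), the measure the authors used for these cultures, sets a gene's count in a library against 4 housekeeping genes there (*Sdha*, *Mrfap1*, *Actb*, *Actg1*), as a ratio to their geometric mean. Totals were 17140202 to 25825762 counts in the 6 libraries numbered replicate 1 and 28159342 to 59734231 in the other 18. Replicate 1 also stood apart in the values of several genes below. The study describes 2 experiments with different litters, plating at 10000 or 4000 cells per cm2 and expansion in 5% oxygen in only one of them, with 1 and 2 wells per genotype and day, which does not add up to the 4 labelled libraries. The labels do not tie a replicate to an experiment or a well. Values of replicate 1 and of replicates 2 to 4 are therefore given apart where they differ.

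Among 9 OB markers none had a count of 0 in any library, and their summed RQ was 32.3 to 89.0 at day 8 in WT and 34.6 to 70.4 in Het. At days 14 and 21 it was 183 to 340.1 in WT and 170.0 to 284.6 in Het. The cultures also held RNA of other cells. Summed over 8 macrophage and osteoclast markers, RQ was 0.709 to 0.783 at day 8 in WT and 0.713 to 1.36 in Het, and at days 14 and 21 it was 2.12 to 7.14 in WT and 3.20 to 16.5 in Het. Chondrocyte markers (*Acan*, *Col2a1*, *Col9a1*, *Sox9*) summed to 20.1 to 34.4 in WT and 5.49 to 33.3 in Het at day 8, and to 3.50 to 21.7 in WT and 1.16 to 22.6 in Het later. Of the 4 endothelial markers, *Emcn* had 0 counts in 16 of 24 libraries. In bulk RNA, fewer cells of a type and less RNA per cell cannot be told apart.

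RefSeq start sites (GRCm38.p6) were available here for 5 of the 7 genes, and *Thbs1* and *Fn1* were not among them. The 250 bases before the start are shown for *Postn*, whose mRNA rose with time, and for *Thbs2*, whose mRNA was not called as changed. These windows held no annotated exon of either gene. They were searched on both strands for GGAATG (bound by TEAD factors), TGANTCA (AP-1), CAGACA (SMAD) and TGTGGT (RUNX), and matches are in capitals.
Postn, chr3:54360857-54361106, plus strand: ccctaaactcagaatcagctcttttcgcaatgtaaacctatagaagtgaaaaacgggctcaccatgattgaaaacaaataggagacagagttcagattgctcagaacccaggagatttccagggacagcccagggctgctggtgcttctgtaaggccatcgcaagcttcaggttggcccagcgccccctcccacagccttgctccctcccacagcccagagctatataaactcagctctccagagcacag
Thbs2, chr17:14694263-14694512, minus strand: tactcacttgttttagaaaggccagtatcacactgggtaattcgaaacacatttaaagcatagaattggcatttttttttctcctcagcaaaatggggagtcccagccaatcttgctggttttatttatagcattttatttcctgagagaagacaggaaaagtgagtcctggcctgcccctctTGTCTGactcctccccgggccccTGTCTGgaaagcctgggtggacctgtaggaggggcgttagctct
The *Postn* window held none of the 4 words. The *Thbs2* window held CAGACA on the opposite strand in 2 places, a word found in 17.1% of all 32851 RefSeq windows of this length. Among the other windows, GGAATG was found once in *Tnn* (12.6% of all windows) and CAGACA once in *Sparc* and in 1 of 2 *Tnc* windows. These windows did hold annotated exon. The start used for *Sparc* lay 3103 bases from the annotated gene start, and 238 of the 250 bases of its window were *Sparc* exon. The *Tnc* window with the match held 79 bases of *Tnc* exon, and the *Tnn* window 5 of *Tnn* exon. TGANTCA (6.75% of all windows) and TGTGGT (14.0%) were found in none of the windows of the 5 genes. A match is a description of letters and not a binding site.

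Per unit of length, *Sparc* was among the most abundant mRNAs of the cultures. On the TPM scale (counts divided by the length of the merged exons, then set to one total per library), it had 7716 ± 1403 TPM (SD, n = 4) in WT at day 8 and 22790 ± 1021 at day 21, where it had rank 2 among all genes in 4 of 4 WT libraries. Het had 7788 ± 1327 at day 8 and 18804 ± 3284 at day 21. *Fn1* had 8048 ± 1176 TPM in WT at day 8, with a range that overlapped that of *Sparc* and an order that turned when the longest transcript was taken as the length, and 2944 ± 218 at day 21. *Thbs1* came next, with 5468 ± 196 TPM in WT at day 8 and 2669 ± 431 at day 21. At days 14 and 21 the ranges of *Fn1* and *Thbs1* overlapped, with *Fn1* above *Thbs1* in 3 of 4 WT libraries of day 21 and in 4 of 4 of the other groups. *Thbs2* and *Tnc* followed in each group, with overlapping ranges, at 1052 ± 282 and 690.0 ± 93.3 TPM in WT at day 8 and 795 ± 152 and 801 ± 36.0 at day 21. *Postn* and *Tnn* were lowest, and they changed places with time in WT, where *Tnn* was above *Postn* in 4 of 4 libraries at day 8 (231 ± 12.8 and 138 ± 30.3 TPM) and below it in 4 of 4 at day 21 (111 ± 14.9 and 361 ± 50.7 TPM). The 7 genes together took 5.79% to 6.50% of all counts at day 8 and 3.94% to 5.38% later.

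**Figure D1:**
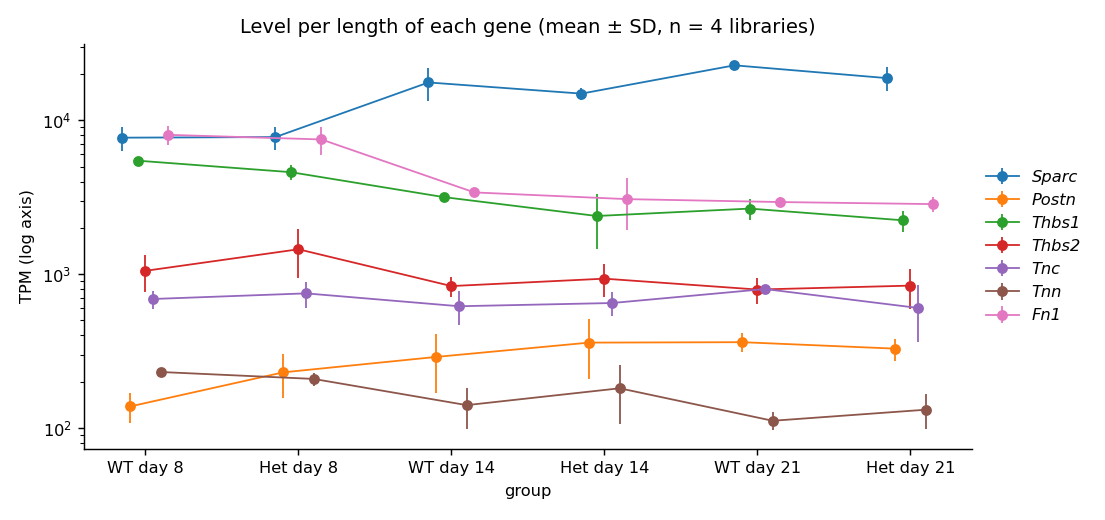
Level per length of the 7 genes in the 6 groups of genotype and day, in TPM on a log axis, as the mean of 4 libraries with SD bars. *Sparc* lay with *Fn1* at day 8 and above every other gene of the group at days 14 and 21.

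Exons of 3 of the 7 genes overlap those of an annotated gene on the opposite strand. *Gm29233* lies over *Thbs1* (chr2:118111876-118127133, plus strand), *8030451A03Rik* over *Tnc* (chr4:63959785-64047015, minus strand) and *Apol7d* over *Fn1* (chr1:71585520-71653200, minus strand). Counts on *Gm29233* were 5.92% to 6.59% of those on *Thbs1* over the 24 libraries, counts on *8030451A03Rik* 5.87% to 6.96% of those on *Tnc*, and counts on *Apol7d* 2.49% to 3.18% of those on *Fn1*. The strand rule of the counting is not given in the sources used here, so reads of the members of each pair cannot be told apart. *Sparc* (chr11:55394500-55423183, minus strand), *Postn* (chr3:54361109-54391037, plus strand), *Thbs2* (chr17:14665500-14694235, minus strand) and *Tnn* (chr1:160085029-160153580, minus strand) have no such overlap.

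*Sparc* and *Postn* rose between days 8 and 14. *Sparc* RQ in WT was 14.0, 22.1, 20.9 and 19.4 at day 8 in replicates 1 to 4, 38.3, 56.8, 56.6 and 46.9 at day 14, and 67.0, 60.8, 66.3 and 61.9 at day 21. In Het it was 14.6, 19.7, 20.3 and 18.1 at day 8, 34.3, 44.6, 44.8 and 39.8 at day 14, and 70.4, 48.1, 51.0 and 41.1 at day 21. The values of days 8 and 14 did not overlap in either genotype, and replicate 1 was lowest at days 8 and 14 and highest at day 21 in both genotypes. The day 14 to day 8 ratio within a genotype and replicate number was 2.19 to 2.74 in 8 of 8 pairs. In edgeR's quasi-likelihood test *Sparc* rose by 1.27 ± 0.12 (log2, ± SE, adjusted p = 1.04e-08), with 1.38 ± 0.17 in WT and 1.17 ± 0.16 in Het.

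*Sparc* rose further from day 14 to day 21, by 0.37 ± 0.12 (log2, edgeR adjusted p = 0.0299), and was higher in 8 of 8 pairs. This second step differed between the replicates. The day 21 to day 14 ratio was 1.89 in replicate 1 over both genotypes and 1.14 in replicates 2 to 4, and without replicate 1 the call was lost (0.18 ± 0.07, edgeR adjusted p = 0.0711). It was also lost on the TMM, DESeq2 and total count scales, without *Mrfap1* in the scale, with no filter on low counts, in 1 genotype alone, and without replicate 2, 3 or 4. Among single libraries, it was lost without replicate 1 or 4 of either genotype at day 14, replicate 1 of either genotype at day 21, or WT replicate 3 at day 21 (0.28 to 0.36 in these 7 fits).

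*Postn* was higher at day 14 than at day 8 as well. Its RQ in WT was 0.542, 0.873, 0.947 and 0.778 at day 8 in replicates 1 to 4, 0.926, 2.22, 2.49 and 1.78 at day 14, and 2.10, 2.55, 2.47 and 2.17 at day 21. In Het it was 0.718, 1.52, 1.46 and 1.22 at day 8, 1.05, 3.60, 2.40 and 2.09 at day 14, and 2.53, 1.80, 2.34 and 1.73 at day 21. Replicate 1 was lowest at days 8 and 14 in both genotypes, and its day 14 values (0.926 and 1.05) were not above all day 8 values of the other replicates (0.778 to 1.52). The ratio was above 1 in 8 of 8 pairs (1.45 to 2.63), and *Postn* rose by 1.07 ± 0.22 (log2, edgeR adjusted p = 0.00038). From day 14 to day 21 the pairs were split 4 to 4, with a ratio of 2.35 in replicate 1 and 0.895 in replicates 2 to 4, and the difference of 0.10 ± 0.22 was not called (edgeR adjusted p = 0.825).

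Fibronectin and thrombospondin 1 mRNA fell over the same interval. *Fn1* RQ in WT was 73.0, 58.5, 52.4 and 61.6 at day 8 in replicates 1 to 4, 35.1, 27.4, 26.8 and 30.8 at day 14, and 25.5, 24.1, 27.1 and 25.3 at day 21. In Het it was 73.3, 42.1, 47.7 and 55.5 at day 8, 38.5, 21.7, 22.6 and 20.2 at day 14, and 31.8, 22.5, 22.2 and 22.0 at day 21. No day 14 value reached the lowest day 8 value in either genotype, and replicate 1 was highest at days 8 and 14. The day 14 to day 8 ratio was 0.364 to 0.525 in 8 of 8 pairs, and *Fn1* fell by 1.06 ± 0.13 on the log2 scale (edgeR adjusted p = 1.06e-06), with −1.03 ± 0.19 in WT and −1.09 ± 0.19 in Het.

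*Thbs1* RQ in WT was 20.9, 22.9, 21.2 and 21.7 at day 8 in replicates 1 to 4, 16.4, 13.2, 13.8 and 14.8 at day 14, and 10.4, 13.6, 12.2 and 11.7 at day 21. In Het it was 20.7, 16.1, 15.1 and 17.5 at day 8, 14.7, 5.74, 10.97 and 9.98 at day 14, and 10.97, 10.8, 10.1 and 7.94 at day 21. Days 8 and 14 did not overlap within a genotype, while the lowest Het value of day 8 lay below the highest WT value of day 14. *Thbs1* fell by 0.66 ± 0.13 on the log2 scale (edgeR adjusted p = 0.000202), and was lower in 8 of 8 pairs (ratios 0.356 to 0.784). From day 14 to day 21 the differences of −0.17 ± 0.13 for *Thbs1* and −0.15 ± 0.13 for *Fn1* were not called (edgeR adjusted p = 0.418 and 0.503). Without the Het library of day 14, replicate 2, *Thbs1* was called at this step (−0.27 ± 0.09, edgeR adjusted p = 0.0497).

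**Figure D2:**
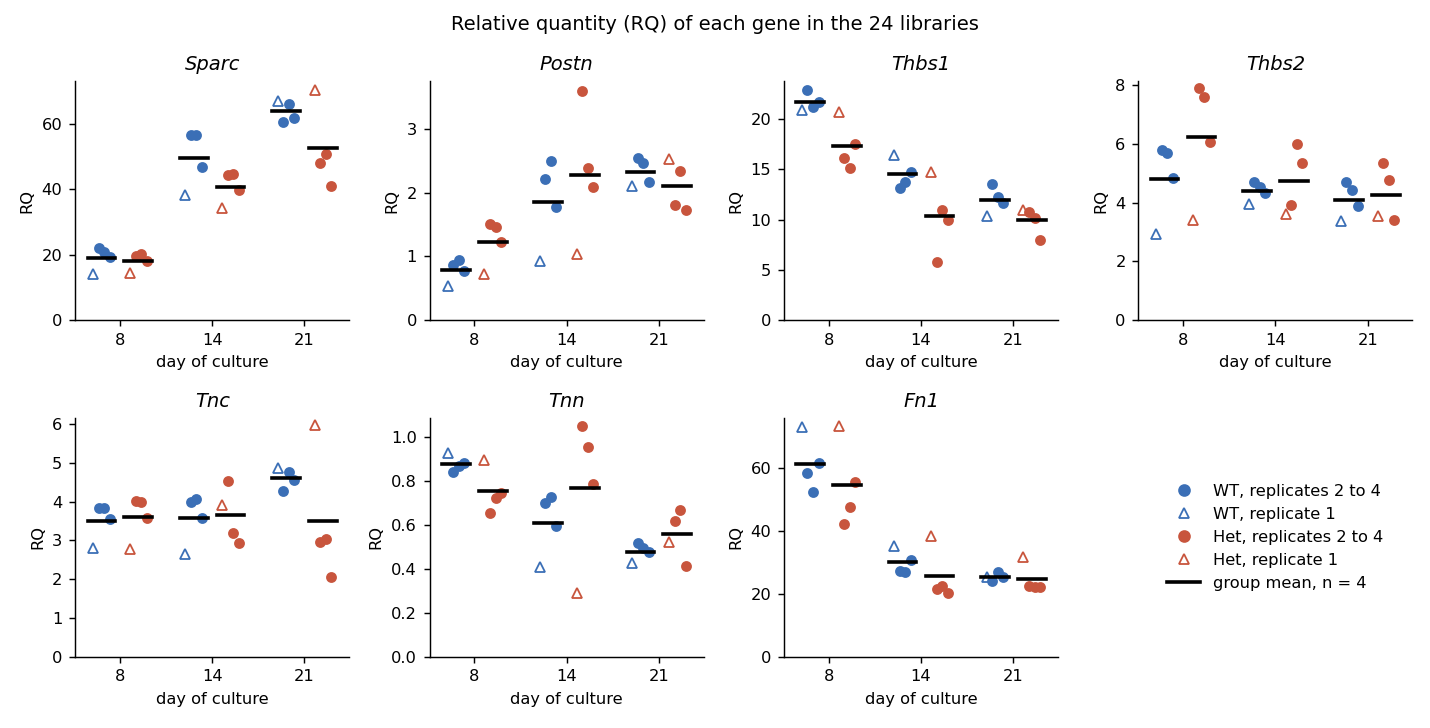
RQ of each gene (y axes start at 0) by day of culture in WT (blue) and Het (red), with 1 point per library, replicate 1 as an open triangle and a bar for the mean of 4 libraries. *Sparc* and *Postn* were higher and *Fn1* and *Thbs1* lower at day 14 than at day 8.

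*Thbs2*, *Tnc* and *Tnn* were not called between days with all libraries on the housekeeping scale, while on the total count scale *Thbs2* (−0.56 ± 0.18, edgeR adjusted p = 0.0129) and *Tnn* (−0.53 ± 0.18, edgeR adjusted p = 0.0135) were called as lower at day 14 than at day 8. *Thbs2* RQ was 2.93 to 7.89 at day 8, 3.62 to 6.01 at day 14 and 3.38 to 5.36 at day 21 over both genotypes (day 14 against day 8: −0.27 ± 0.17, edgeR adjusted p = 0.198). Without replicate 1, in which *Thbs2* was lowest in 5 of 6 groups, the difference was −0.38 ± 0.11 and was called (edgeR adjusted p = 0.00743; without Het replicate 1 of day 8 alone, −0.37 ± 0.15, adjusted p = 0.0401), so that 5 of the 7 genes were called, against 62.7% of all genes. *Tnc* had 2.77 to 4.03 at day 8 and 2.65 to 4.54 at day 14, and its difference of 0.03 ± 0.16 changed sign with other library scales. *Tnn* was 0.656 to 0.926 at day 8, 0.288 to 1.05 at day 14 and 0.414 to 0.668 at day 21. In replicate 1 *Tnn* at day 14 was at 0.382 times its day 8 level and in replicates 2 to 4 at 1.02 times, and neither step of time was called with all libraries on the housekeeping scale (edgeR adjusted p = 0.27 and 0.129). Without replicate 1, *Tnn* was called as lower at day 21 than at day 14 (−0.58 ± 0.10, edgeR adjusted p = 0.000203), against 31.2% of all genes. Without Het replicate 1 of day 14 alone it was called as well (−0.54 ± 0.12, edgeR adjusted p = 0.00237).

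Between days 14 and 8, 4 of the 7 genes were called, 2 higher and 2 lower, against 47.9% of all 20287 genes tested (34.3% higher and 13.6% lower). The same 4 genes were called in WT alone and in Het alone, where 30.9% and 35.6% of genes were called. RQ did not overlap between the days for 2 of the 7 genes (*Sparc* and *Fn1*), against 15.7% of all genes. Between days 21 and 14, 1 of the 7 was called, against 18.2% of genes. With the 4 housekeeping genes as the scale, the median of all genes was 0.12 higher at day 14 than at day 8 on the log2 scale, and with the total count as the scale it was −0.15. The genes called then numbered 3571 higher and 7992 lower, against 6962 and 2753 with the housekeeping scale and 5221 and 4947 with TMM. The calls in both directions for *Sparc*, *Postn*, *Thbs1* and *Fn1* stood under all 43 alternatives, with log2 fold changes of 0.99 to 1.38, 0.77 to 1.24, −0.93 to −0.54 and −1.33 to −0.97. All 9 OB markers and 7 of 8 macrophage and osteoclast markers rose over the same interval, and all 6 cell cycle genes fell (edgeR), and their part in the changes of the matrix genes was not tested.

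**Figure D3:**
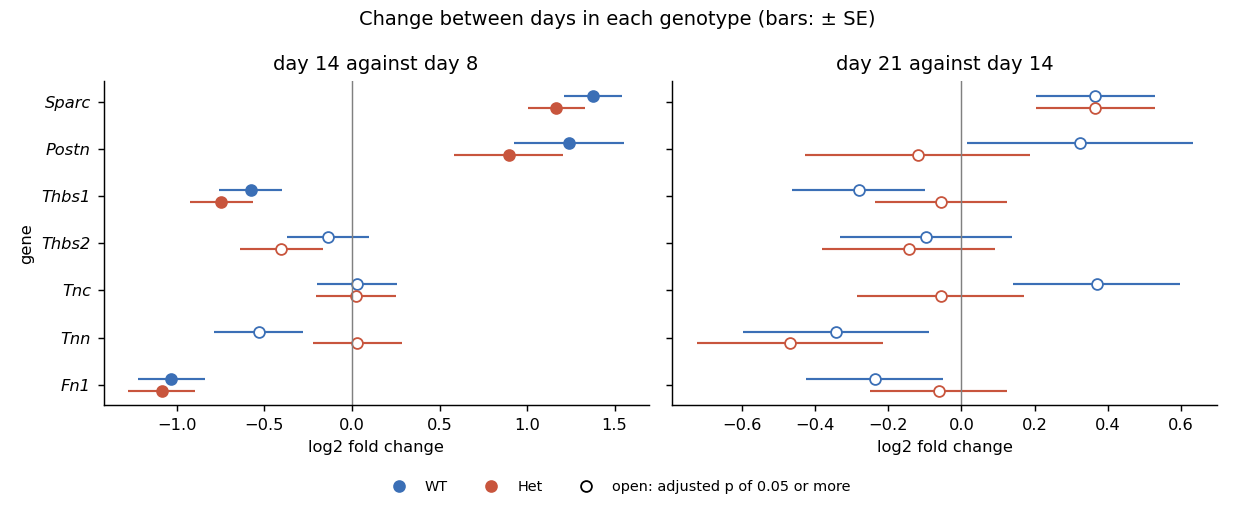
Log2 fold change (± SE, edgeR) of each gene from day 8 to 14 and from day 14 to 21 in WT and in Het, with filled points for an adjusted p under 0.05 in that genotype alone. At the first step *Sparc* and *Postn* lay right of 0 and *Thbs1* and *Fn1* left of 0 in both genotypes, and at the second no gene was called in 1 genotype alone.

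The comparison of Het with WT at days 14 and 21 asks how cultures with the collagen substitution differ from WT once matrix is being made. With the geometric mean of housekeeping genes as the scale, none of the 7 genes was called (edgeR), against 15.3% of all genes, while 2 had an unadjusted p under 0.05. Over all genes 1465 were higher and 1633 lower in Het, with 2473 and 1514 on the TMM scale and 3318 and 966 on the total count scale. *Thbs1* was closest to the threshold, at −0.38 ± 0.13 on the log2 scale (edgeR adjusted p = 0.0509). It was 13.2 ± 1.87 in WT and 10.2 ± 2.59 in Het (mean RQ ± SD, n = 8), lower in Het in 7 of 8 pairs, with 4 of 8 Het values below every WT value. With the replicate number as a block *Thbs1* was called (−0.39, edgeR adjusted p = 0.0315).

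By the authors' rule, a gene counts as changed when the ratio of mean RQ is above 1.2 or below 0.8 with p under 0.05. In a two-sided exact permutation test over the 8 and 8 libraries, *Thbs1* met it, with a ratio of 0.767 (exact permutation p = 0.0157). It was the only one of the 7, against 13.9% of all genes tested in the same way, and the p-values were not adjusted over the 7. The ratio was 0.961 in replicate 1 and 0.702 in replicates 2 to 4. Without the Het library of day 14, replicate 2, which had the lowest *Thbs1* RQ, it was 0.815 (exact permutation p = 0.0317), short of the rule's 0.8. Without replicate 2, 3 or 4 it was 0.818, 0.753 and 0.797, with exact permutation p = 0.0844, 0.0606 and 0.0844. With the total count as the scale it was 0.82 (exact permutation p = 0.0803).

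For *Sparc* the mean RQ ratio was 0.823 (exact permutation p = 0.0735 over all libraries, 0.0257 within days and 0.0156 for swaps within the pairs of the replicate block), short of the rule's ratio of 0.8, with a log2 difference of −0.28 ± 0.11 (edgeR adjusted p = 0.102). *Sparc* was lower in Het in 7 of 8 pairs, with a ratio of 0.995 in replicate 1 and 0.771 in replicates 2 to 4. Without replicate 1 it met the authors' rule (exact permutation p = 0.00649). *Tnc* in Het was at 0.874 times WT (exact permutation p = 0.32), with 1.31 in replicate 1 and 0.743 in replicates 2 to 4. In replicate 1, *Tnc* RQ was 2.65 in WT and 3.91 in Het at day 14, and 4.88 and 5.97 at day 21. In replicates 2 to 4 at day 21 *Tnc* RQ was 4.27 to 4.76 in WT and 2.06 to 3.04 in Het. These are 3 against 3 libraries, for which no exact permutation p can fall below 0.1. Over days 14 and 21 together, *Tnc* without replicate 1 also met the authors' rule (ratio 0.743, exact permutation p = 0.0173). *Fn1* was at 0.908 times WT (exact permutation p = 0.346), at 1.16 in replicate 1 and 0.813 in replicates 2 to 4. Without replicate 1, *Fn1* had an exact permutation p = 0.00216, with a ratio short of the rule's 0.8. *Tnn* (1.22, exact permutation p = 0.256), *Thbs2* (1.06, exact permutation p = 0.524) and *Postn* (1.05, exact permutation p = 0.77) were above 1 and were not called, and RQ of the genotypes overlapped for each of the 7 genes at these days (groups did not overlap for 0.897% of all genes).

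**Figure D4:**
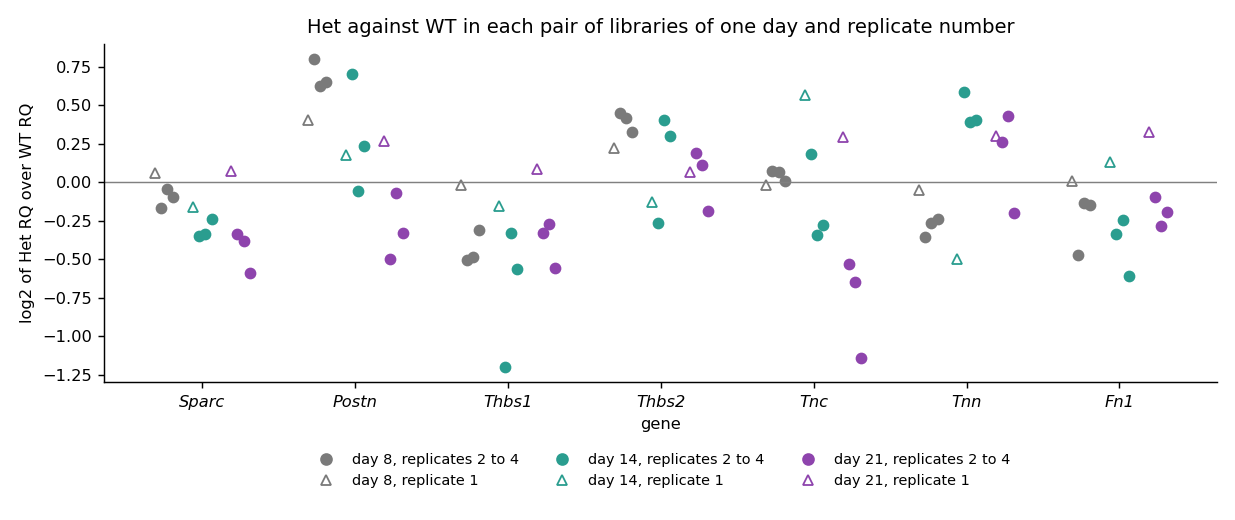
Log2 of Het RQ over WT RQ for each gene in the 12 pairs of libraries of one day and replicate number, with replicate 1 as open triangles. For *Tnc* and *Fn1* at days 14 and 21, replicate 1 lay above 0, and replicates 2 to 4 lay below 0 with 1 exception, *Tnc* in replicate 2 at day 14.

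Replicates 2 to 4 alone gave another count at days 14 and 21. Without replicate 1, 5 of the 7 genes were called (edgeR), against 41.8% of all genes. *Sparc* (−0.37 ± 0.07, adjusted p = 0.000592), *Thbs1* (−0.51 ± 0.12, adjusted p = 0.00262), *Tnc* (−0.44 ± 0.10, adjusted p = 0.00254) and *Fn1* (−0.30 ± 0.07, adjusted p = 0.00315) were lower in Het. *Tnn* was higher in Het (0.33 ± 0.10, edgeR adjusted p = 0.0112). The difference between replicate 1 and the others was not tested, since replicate 1 is 1 library per genotype and day. Whether replicates 2 to 4 are wells of 1 preparation is not given in the labels. If they are, the p-values without replicate 1 measure the spread between wells. Genotype and the pool of pups could then not be told apart. Markers of other cells also differed between replicate 1 and the others. Summed RQ of chondrocyte markers at days 14 and 21 was 8.02 and 21.7 in WT and 7.96 and 22.6 in Het in replicate 1, and 3.50 to 13.1 in WT and 1.16 to 2.56 in Het in replicates 2 to 4. *Col2a1* weighed most in these sums, with a median count of 126694, against 12625.5 for *Acan*. Of the 4 genes, *Sox9* alone was called with all libraries (edgeR), as lower in Het, beside 8.05% of all genes. Macrophage and osteoclast markers summed to 2.12 to 7.14 in WT and 6.79 to 16.5 in Het in replicates 2 to 4, and to 4.63 and 6.19 and to 3.20 and 7.70 in replicate 1. OB markers summed to 276 to 340.1 in WT and 196 to 268 in Het in replicates 2 to 4, and to 183 and 315 and to 170 and 285 in replicate 1. *Col1a1* and *Col1a2* weighed most in the OB sums, with median counts of 1.47e+06 and 1.48e+06, against 186858 for *Ibsp*. Of the 9 OB markers, *Bglap* and *Runx2* alone were called with all libraries (edgeR), as lower in Het, beside 8.05% of all genes. In replicates 2 to 4 tendon-like markers (*Scx*, *Tnmd*, *Mkx*) summed to 0.132 to 0.17 in WT and 0.181 to 0.372 in Het. In replicate 1 they were 0.134 to 0.174 in WT and 0.0738 to 0.0878 in Het. *Tnmd* weighed most in these sums, with a median count of 2671.5, against 462 for *Scx* and 302.5 for *Mkx*. With all libraries only *Mkx* of the 3 was called (edgeR), as lower in Het, beside 8.05% of all genes. Fibroblast and progenitor markers summed to 0.118 to 0.202 in WT and 0.186 to 0.302 in Het in replicates 2 to 4, and to 0.205 to 0.258 and 0.104 to 0.215 in replicate 1. *Ly6a* weighed most here, with a median count of 3316.5, against 338 for *Cd34*. Of 4 tested, *Dpt* alone was called with all libraries (edgeR), as higher in Het, beside 7.22% of all genes. Endothelial markers were at 0.0017 to 0.00302 in WT and 0.00339 to 0.00486 in Het in replicates 2 to 4, and at 0.00237 to 0.00293 and 0.00317 to 0.00351 in replicate 1. These sums rest on few reads, with at most 102 counts of *Kdr*, 36 of *Pecam1*, 13 of *Cdh5* and 2 of *Emcn* in a library. With all libraries only *Kdr* of 3 tested was called (edgeR), as higher in Het, beside 7.22% of all genes. The part of these cells in the differences of the 7 genes was not tested.

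At day 8 none of the 7 genes was called (edgeR), against 0.641% of all genes, and 1 had an unadjusted p under 0.05. *Postn* was higher in Het in 4 of 4 pairs, by 0.65 ± 0.31 (log2, edgeR adjusted p = 0.489), with a ratio of mean RQ of 1.33 in replicate 1 and 1.62 in replicates 2 to 4. Without replicate 1 it was called (0.69 ± 0.17, edgeR adjusted p = 0.0127), alone among the 7, against 17.3% of all genes. *Thbs2* was also higher in Het in 4 of 4 pairs, 3.41 to 7.89 against 2.93 to 5.79 in WT, at 0.37 ± 0.24 (edgeR adjusted p = 0.653). *Thbs1* was lower in Het in each pair, without overlap of the genotypes (15.1 to 20.7 against 20.9 to 22.9), with a ratio of 0.988 in replicate 1 and 0.741 in replicates 2 to 4. Its ratio was 0.8 and its exact permutation p = 0.0286, the smallest that 4 against 4 libraries allow, while edgeR gave −0.32 ± 0.18 (adjusted p = 0.589). RQ did not overlap between the genotypes at day 8 for 4.74% of all genes.

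The genotype difference itself was compared between days 14 and 21 and day 8 as an interaction, which called none of the 7 genes (edgeR) and 0.177% of all genes, with none of the 7 at an unadjusted p under 0.05. *Postn* differed most downward, by −0.57 ± 0.38 on the log2 scale, and *Tnn* most upward, by 0.50 ± 0.31. *Thbs1* had −0.05 ± 0.22. Without replicate 1 the interaction of *Tnn* was called (0.62 ± 0.17, edgeR adjusted p = 0.0419), against 4.72% of genes. *Tnn* RQ in replicates 2 to 4 was 0.656 to 0.744 in Het and 0.841 to 0.879 in WT at day 8, and 0.785 to 1.05 in Het and 0.592 to 0.727 in WT at day 14. At day 21 it was 0.414 to 0.668 in Het and 0.476 to 0.515 in WT, which overlapped, and replicate 4 was lower in Het (ratio 0.87).

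Over the 24 libraries, which share their cultures, days and scale, log2 RQ of *Sparc* and *Postn* ran together and opposite to that of *Fn1* and *Thbs1*. Pearson's r was 0.83 between *Sparc* and *Postn*, 0.87 between *Fn1* and *Thbs1*, and −0.87 between *Sparc* and *Fn1*, where Spearman's rho was 0.83, 0.92 and −0.65. *Thbs2*, *Tnc* and *Tnn* had r of −0.48 to 0.44 with each of the other genes. By rank, *Tnc* was closer to *Sparc* and *Postn* (rho = 0.59 with both, against r of 0.39 and 0.44). In a search of 14870 genes (mean count of 50 or more), the gene most like *Thbs1*, *Tnc* and *Fn1* by Pearson's r was in each case the one annotated over it on the other strand, *Gm29233* (r = 0.995), *8030451A03Rik* (r = 0.985) and *Apol7d* (r = 0.992). By Spearman's rho *Adgrg1* came before *Apol7d* for *Fn1*, and 10 of the 21 nearest genes were shared between both measures. After these came *Faxc* (r = 0.972) and *Plekhg4* (r = 0.959) for *Thbs1*, *Itgb3* (r = 0.772) and *Wdr95* (r = 0.737) for *Tnc*, and *Adgrg1* (r = 0.989) and *Hspb6* (r = 0.982) for *Fn1*. *Sparc* was most like the pseudogene *A930017M01Rik* (r = 0.994), *Hdac9* (r = 0.990) and *Lrch1* (r = 0.989). *Postn* was most like *Dlx6* (r = 0.948), a homeobox gene of craniofacial bone, *Dlx6os2* (r = 0.942) and *Ccdc3* (r = 0.924). *Thbs2* was most like *Zfp521* (r = 0.920), *Cdh3* (r = 0.899) and *A430027H14Rik* (r = 0.884), and *Tnn* like *Atrnl1* (r = 0.841), *Tnfaip6* (r = 0.816) and *Fancf* (r = 0.782).

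Relatives and receptors of the 7 proteins were taken as 8 lists, with calls on the housekeeping scale. Of 7 SPARC relatives, 2 rose and 2 fell between days 8 and 14 (edgeR, median −0.23 on the log2 scale, against 0.12 over all genes), with 34.3% of all genes higher and 13.6% lower, so that 4 of 7 called stood beside 47.9%. *Spock1*, a proteoglycan, rose from a mean RQ of 0.000354 to 0.0206 in WT (6.10 ± 0.30, adjusted p = 1.61e-12), and *Spock3* by 2.10 ± 0.33. *Fstl1* fell by 0.40 ± 0.06 on the log2 scale and *Smoc2* by 0.52 ± 0.20. *Tgfbi*, the relative of periostin, fell by 1.27 ± 0.16 (edgeR adjusted p = 6.46e-07), while *Postn* rose. At days 14 and 21 *Tgfbi* was higher in Het than in WT (0.46 ± 0.15, edgeR adjusted p = 0.049). Of the other thrombospondins and tenascins, 4 of 5 passed the filter on low counts, and 2 rose (*Thbs4*, *Tnxb*) and 1 fell (*Thbs3*, −0.40 ± 0.14) between days 8 and 14, beside the same shares, with a median of 0.70. *Thbs4* was lower in Het at days 14 and 21.

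Of 6 CCN proteins, matricellular proteins that bind integrins, 2 rose and 2 fell from day 8 to day 14 (edgeR, median −0.65), beside 34.3% of all genes higher and 13.6% lower. *Ccn4* rose by 1.57 ± 0.09 and *Ccn3* by 1.05 ± 0.23, while *Ccn5* fell by 1.03 ± 0.17 and *Ccn1* by 0.63 ± 0.19 on the log2 scale. Of 15 adhesive and microfibril glycoproteins tested, 1 rose (*Mfap2*, 0.66 ± 0.17) and 4 fell over this interval, beside the same 34.3% and 13.6% of all genes, with the largest falls in *Ltbp1* (−1.80 ± 0.13), which holds latent TGF-beta in the matrix, in *Fbln2* (−1.60 ± 0.21) and in the fibrillin gene *Fbn1* (−0.74 ± 0.11). *Emilin1* was the 1 gene of this list called between genotypes at days 14 and 21, beside 15.3% of all genes. It was lower in Het (−0.54 ± 0.10, edgeR adjusted p = 0.00182), with a mean RQ of 1.21 in WT and 0.852 in Het at day 14.

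Of 16 integrin subunits, 6 rose and 4 fell between days 8 and 14 (edgeR, median 0.03), beside 34.3% of all genes higher and 13.6% lower. *Itga10*, a collagen receptor subunit, rose by 2.27 ± 0.14 and *Itga4* by 2.24 ± 0.13. The fibronectin receptor subunit *Itga5* fell by 0.80 ± 0.13 on the log2 scale (mean RQ 0.343 to 0.192 in WT), and *Itga3* by 1.5 ± 0.31. *Itgb1*, *Itgb3* and *Itgav* were not called. Between genotypes at days 14 and 21, 1 of the 16 was higher and 1 lower in Het, beside 7.22% and 8.05% of all genes. They were *Itga9*, higher (0.29 ± 0.06, edgeR adjusted p = 0.00327), and *Itga2*, lower (−0.65 ± 0.21, edgeR adjusted p = 0.0395). Of 9 other receptors, 6 rose and 1 fell from day 8 to day 14, beside 34.3% and 13.6% of all genes, and 6 rose and 1 fell from day 14 to day 21, beside 12.2% and 5.95%, with *Sdc1* the gene that fell at both steps. *Stab1*, a scavenger receptor for SPARC, rose by 3.12 ± 0.22 and *Cd36*, a receptor for thrombospondins, by 2.42 ± 0.27 at the first step, and both were higher in Het at days 14 and 21 (0.79 ± 0.21 and 0.94 ± 0.25, edgeR adjusted p = 0.014 and 0.0158). Both genes are also known from macrophages. Of the 8 macrophage and osteoclast markers, 6 were higher in Het at these days (edgeR), beside 7.22% of all genes. The part of these cells in the differences of *Stab1* and *Cd36* was not tested. *Sdc3*, a syndecan, was lower in Het (−0.43 ± 0.12, edgeR adjusted p = 0.0227). Of these 9 receptors, 2 were higher and 1 lower in Het, beside 7.22% and 8.05% of all genes.

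Of 12 genes that follow actin tension, SRF, YAP or TGF-beta in mesenchymal cells, 9 fell and none rose between days 8 and 14 (edgeR, median −0.46 against 0.12 over all genes), beside 13.6% of all genes lower and 34.3% higher on this scale, a balance that turned with the total count scale (7992 lower, 3571 higher). *Ankrd1* fell by 1.10 ± 0.44 and *Cnn1* by 0.97 ± 0.12 on the log2 scale. The list holds *Acta2*, *Tagln* and *Cnn1*, which also mark smooth muscle, where 4 of 5 markers fell (summed RQ 5.29 to 7.41 at day 8 and 3.80 to 5.65 at day 14). Between genotypes at days 14 and 21, 1 gene was higher in Het (*Actg2*, 0.69 ± 0.21, edgeR adjusted p = 0.0324), beside 7.22% of all genes. None of the 8 lists held a called gene at day 8, where 0.641% of all genes were called.

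**Figure D5:**
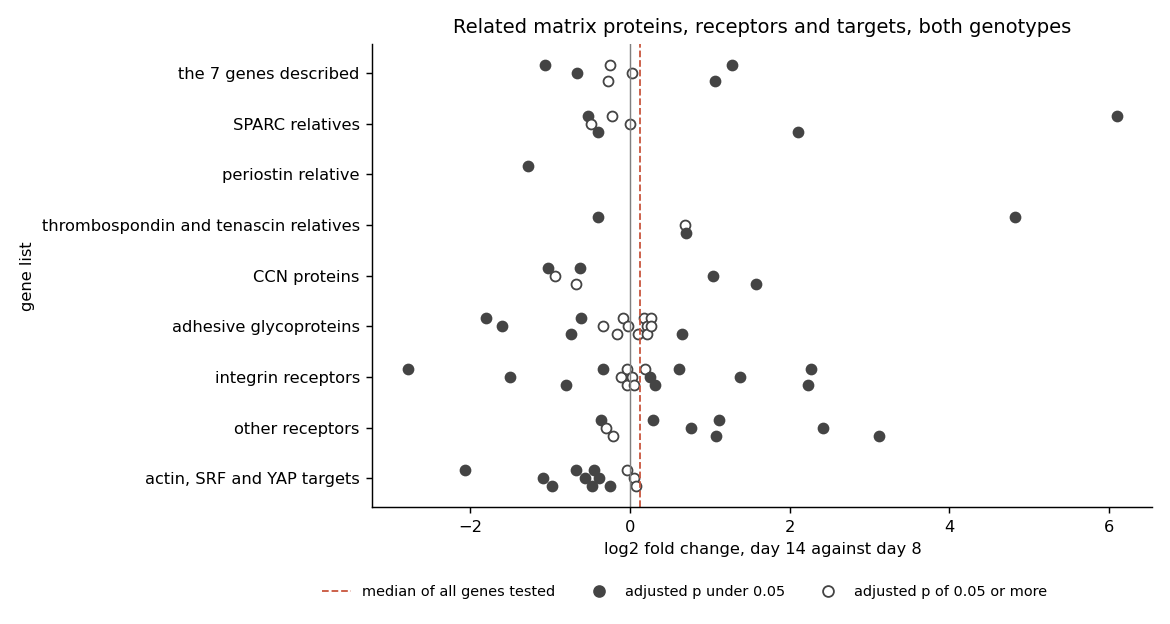
Log2 fold change from day 8 to day 14 (both genotypes, edgeR) of the 7 genes and of each tested gene of the 8 related lists, with filled points for an adjusted p under 0.05 and a dashed line at the median of all genes. Points lay on both sides of 0 in most lists, and all filled points of the actin, SRF and YAP targets lay left of 0.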

How the data were processed

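Bulk RNASeq counts of reads per gene were deposited by the authors as raw counts, 1 library per file, from TruSeq polyadenylated RNA libraries without molecular identifiers, beside each gene's length. Counting intervals would thus cover counting error only. Per the labels' processing notes, cutadapt 2.5, STAR 2.73a, Subread and featureCounts 1.6.4 were used with mm10. Strand and multimapping settings are not given in the sources used here. Identifiers with the same version were found in GENCODE mouse release 21 (GRCm38) for 54587 genes. Totals per library are given in the report, and chi-square per degree of freedom between replicates was at least 5.14, so no library was counted as a repeat of another. This check compares the spread with counting error only, and cannot tell whether libraries came from the same well.

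Counts were fitted with edgeR 4.0.16 (R 4.3.3; estimateDisp, glmQLFit, glmQLFTest) over all 24 libraries as 6 group means, with the housekeeping geometric mean as the library scale, filterByExpr and Benjamini-Hochberg adjustment over all genes tested, called at an adjusted p under 0.05. Log2 values carry SE from that test. Mean RQ was compared by two-sided exact permutation tests. DESeq2 1.42.0, other scales, no filter, blocks, single days and libraries left out were the alternatives. Code was tested on simulated data with known changes.

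Same-numbered WT and Het libraries of one day deviated together from their group means (12 correlations, 0.193 to 0.713, median 0.454). The 36 pairs with unlike numbers had a median of −0.124, and so the labels' numbers were taken to pair the samples. Deviations from a group mean cancel within the group, so positive values for like numbers push those for unlike numbers to be negative. In replicates 2 to 4 alone the correlations of same-numbered libraries were weaker, 0.0161 to 0.344 with a median of 0.185. The 7 genes and all lists were chosen with earlier results of these data known. Named genes were the 7 themselves, for each the 3 with the highest Pearson r, and from each related list at most 3 per direction with the largest called change and a mean of at least 50 counts, except *Thbs4*, *Tnxb*, *Itgb1*, *Itgb3* and *Itgav*, named after their values were seen. The values of 1 gene that this rule names are not reported here.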

Additional observations from a re-analysis of the deposited data

Results flagged for a closer look

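*Fn1* RQ in the Het library of day 14, replicate 1, was 38.5, with 20.2 to 22.6 in the other 3 libraries of that group, and its gap took 0.87 of the range. *Fn1* RQ in the Het library of day 21, replicate 1, was 31.8, with 22.0 to 22.5 in the others, a gap of 0.951 of the range. Both lay beyond Dixon's 95% critical value for 4 samples. These were 2 of 42 groups examined, and chance alone marks about 1 in 20. In WT the replicate 1 value was highest at day 14 (35.1 against 26.8 to 30.8) and among the others at day 21 (25.5 against 24.1 to 27.1). With all libraries, no gene of the 7 had a called difference between the genotype effects of the later days and of day 8.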

How the results depend on the processing

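Each result was recomputed with other scales, filters, tests and subsets. Over 42 values of the 7 genes and 1708 recomputed values, 1601 kept direction and side of the threshold, 26 lost and 32 gained the call and 49 changed sign. With the replicate number as a block (pairing), 4990 genes were called between genotypes at days 14 and 21, 317 at day 8 and 66 for the difference. The block changed no call of the 7 genes except that of *Thbs1*, the 1 gene called. With replicate 1 against the others as a covariate the counts were 5356, 393 and 71. DESeq2 with its own size factors gave 4899, 520 and 95, and on the housekeeping scale 457 at day 8 and 89 for the difference. Day 14 alone gave 709 and 12, day 21 alone 192 and 9, and only the libraries of day 8 gave 0 at day 8. WT alone called 6272 genes from day 8 to 14 and 1748 from day 14 to 21, Het alone 972 at the second step. Of the 7 genes, 1 was called between genotypes at days 14 and 21 under the covariate, both DESeq2 fits and without *Mrfap1*. At day 21 against 14, 0 were called (edgeR, 1 in the fit reported) in WT or Het alone, on the TMM, DESeq2 or total count scales, with DESeq2's own test, without *Mrfap1* and with no filter. By the RQ rule 0 changed with the total count or on day 14 or 21 alone.

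Signs turned as follows, and the cause was not tested. Het against WT, *Postn* was −0.14 (ratio 0.905) at day 21 alone and *Tnc* 0.031 (1.02) at day 14 alone. At day 8 *Sparc* was 0.022 with TMM, 0.033 with DESeq2 size factors and DESeq2's test and 0.031 with the total count. For the difference, *Thbs1* was 0.059 at day 21 alone and *Fn1* −0.056 at day 14 alone. From day 8 to 14 *Tnc* was −0.10 with TMM, DESeq2 size factors and DESeq2's test and −0.26 with the total count, and *Tnn* was 0.031 in Het alone. From day 14 to 21, in Het alone, *Postn* was −0.12 and *Tnc* −0.057.

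Leaving out 1 replicate number or 1 library gave these counts of genes called: 88 to 8228 for days 14 and 21, 0 to 3412 for day 8, 0 to 929 for the difference, 1328 to 6137 for day 21 against 14. Of the 7 genes it called 0 to 5 for days 14 and 21, 0 to 1 for day 8, 0 to 1 for the difference, 0 to 2 for day 21 against 14, and 0 to 3 changed by the RQ rule. Log2 fold changes whose sign turned spanned −0.076 to 0.20 for *Postn* (days 14 and 21), −0.19 to 0.022 for *Sparc* (day 8), −0.057 to 0.14 for *Tnc* (day 8), −0.16 to 0.046 for *Thbs1* (the difference), −0.099 to 0.21 for *Fn1* (the difference), −0.036 to 0.085 for *Tnc* (day 14 against 8), −0.42 to 0.019 for *Tnn* (day 14 against 8), −0.16 to 0.31 for *Postn* (day 21 against 14), −0.092 to 0.30 for *Tnc* (day 21 against 14), and the RQ ratio of *Postn* spanned 0.954 to 1.13.

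The lowest count of the 7 genes in a library of at least 17140202 counts was 2544.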
